A study of Mus musculus with 18 samples.

Results

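The 39 genes described here encode the actins, proteins that bind, sever, nucleate, cap or crosslink actin, the tropomyosins and myosin II, together with serum response factor (Srf) and 2 secreted proteins whose genes answer to the same signals. They were taken by symbol from the deposited table of raw counts, in which they made up 39 of 24111 genes. RNA was sequenced from mpkCCD cells, a single immortal mouse line that models the vasopressin-sensitive principal cell of the collecting duct, grown to confluence on permeable supports. The dDAVP group (9 libraries) had received 0.1 nM dDAVP (desmopressin, a vasopressin analogue that acts on the V2 receptor) for 24 h, and the control group (9 libraries) was left without it for the same time. All 18 cultures had been without serum for 24 h beforehand and remained without it during treatment, so both groups were serum-starved, which bears on genes that respond to serum. The libraries carry the numbers 1 to 9 in each group, and the comparison is given over all 18 and within the numbers 1 to 3, 4 to 6 and 7 to 9, called sets here. As the labels do not say whether the libraries of a group come from separate cultures, the tests measure only the spread between these libraries, which may be technical.

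Actin exists as single molecules and as filaments built from them. Profilin and the thymosins bind the single molecules, the cofilins sever filaments, the Arp2/3 complex starts new branches, tropomyosins lie along filaments and myosin II pulls on them. Unpolymerised actin also holds back a coactivator of Srf, so that the genes for actin and many of its partners, which carry CArG boxes bound by Srf, are known to be expressed more when filaments assemble. In principal cells vasopressin is known to loosen the actin filaments beneath the apical membrane while vesicles with the water channel aquaporin-2 move there.

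Levels below are normalised CPM (read counts relative to the library total, itself multiplied by a TMM factor that evens out composition) unless FPKM, which is also per length of gene, is named. Overlap and order of libraries are given on the normalised CPM scale too, unless FPKM is named. Library totals were 22212779 to 105932411 counts in dDAVP and 23372913 to 78578524 in control libraries, and 3 counts, the most that a count of 0 allows by counting error alone, came to 0.0143 to 0.359 normalised CPM. The TMM factors ran from 0.306 to 3.15. They were lowest for the library dDAVP 6, which also had the fewest genes with a count (10282), and highest for dDAVP 8. Aqp2, the aquaporin-2 gene and a check of the labels, had 1050.0, 2637 and 2424 normalised CPM in dDAVP libraries 1 to 3, against 20.5, 23.1 and 27.9 in control libraries 1 to 3. Its values were 993, 1099 and 162 in dDAVP libraries 4 to 6, against 48.2, 27.4 and 46.2 in control, and 2764, 175 and 193 in dDAVP libraries 7 to 9, against 10.9, 37.3 and 252 in control, so that dDAVP 8 and 9 lay below control 9 and went against their labels relative to it. Within libraries 7 to 9, deviations were taken from the mean of the 3 libraries of the same treatment group and set. They ran opposite in libraries of the same number (r across genes of -0.71, -0.50 and -0.34 for numbers 7, 8 and 9, a description). Whether the labels of libraries 7 to 9 hold was not tested, and each fold change of that set, and of the fits that include it, rests on them. Without libraries 7 to 9 the set term fit called 0 of 35 members, 16 of which were positive and 19 negative, and their median log2 fold change was -0.09. Of the markers of other cell types, Pdgfra, Postn, Pecam1, Cdh5 and Kdr were at 0 in all 18 libraries. The 12 mesenchymal and smooth muscle markers summed to at most 8.87 normalised CPM in dDAVP and 3.29 in control libraries, and the 5 endothelial markers to at most 0.120 in dDAVP and 0 in control libraries. Leukocyte markers (Cd68 and 4 others) summed to 0 to 27.5 normalised CPM in dDAVP and 2.52 to 31.9 in control libraries, and the 10 principal cell and epithelial markers to 2682 to 20919 in dDAVP and 1454 to 16618 in control libraries. In libraries 1 to 3 the 5 proximal tubule markers summed to 2.76 to 5.20 in dDAVP and 6.17 to 8.23 in control. The 5 intercalated cell markers summed to 3.39 to 13.1 in dDAVP and 1.63 to 2.26 in control. In that set the proximal tubule sum was nearly all Lrp2, with Slc34a1, Cubn and Slc5a2 at 0. The intercalated cell sum was nearly all Atp6v1b1 and Atp6v0a4, with Slc26a4 and Foxi1 at 0 and Slc4a1 at most 0.113. The sums thus do not show a difference in either cell type, and their part in the results of that set was not tested. Over all 18 libraries these sums were 0.791 to 10.9 in dDAVP and 1.53 to 8.23 in control for proximal tubule, and 1.92 to 21.2 in dDAVP and 0.292 to 14.2 in control for intercalated cell markers. In bulk RNA fewer cells of a type and less RNA per cell cannot be told apart.

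Promoters of the genes are shown first because Srf binds CArG boxes there, and because cAMP, which vasopressin raises, acts through factors that bind TGACGTCA. The windows are RefSeq sequences of build GRCm38.p6, from 250 bases before to 50 bases after a transcription start, and 36 of the 39 genes had at least 1. Actb, Tagln and Ctgf had no window and were not searched. A CArG box, searched by name on both strands, stood in windows of 7 of the 36 genes (19.4%), against 1.81% of 27025 genes of the RefSeq table. The 7 were Actg1, Myl6, Myl9, Vil1, Vcl, Cnn2 and Srf. TGACGTCA stood in 1 of the 36 (Myl6, 2.78%), against 2.03% of all genes. GGAATG, the core of the sites of the TEAD partners of YAP, stood on either strand in 12 of the 36 (33.3%), against 16.6% of all genes. These are matches of letters and no evidence of binding. In the windows of Srf, Actg1, Vcl, Cnn2 and Myl6 that follow, 5′ to 3′ along the gene, capitals mark the CArG boxes, or TGACGTCA in the first window of Myl6.
Srf (chr17:46556113-46556412, minus strand): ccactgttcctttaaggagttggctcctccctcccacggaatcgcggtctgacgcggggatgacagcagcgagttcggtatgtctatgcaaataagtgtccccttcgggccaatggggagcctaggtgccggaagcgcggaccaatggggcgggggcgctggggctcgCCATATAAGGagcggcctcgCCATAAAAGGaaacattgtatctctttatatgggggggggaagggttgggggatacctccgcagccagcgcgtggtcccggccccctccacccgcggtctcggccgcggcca
Actg1 (chr11:120348446-120348745, minus strand): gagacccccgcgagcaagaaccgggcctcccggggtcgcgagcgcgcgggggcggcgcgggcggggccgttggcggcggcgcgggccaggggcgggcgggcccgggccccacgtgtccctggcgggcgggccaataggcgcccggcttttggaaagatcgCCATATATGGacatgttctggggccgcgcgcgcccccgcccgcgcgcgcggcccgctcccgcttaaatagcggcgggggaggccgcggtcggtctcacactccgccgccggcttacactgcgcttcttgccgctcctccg
Vcl (chr14:20929148-20929447, plus strand): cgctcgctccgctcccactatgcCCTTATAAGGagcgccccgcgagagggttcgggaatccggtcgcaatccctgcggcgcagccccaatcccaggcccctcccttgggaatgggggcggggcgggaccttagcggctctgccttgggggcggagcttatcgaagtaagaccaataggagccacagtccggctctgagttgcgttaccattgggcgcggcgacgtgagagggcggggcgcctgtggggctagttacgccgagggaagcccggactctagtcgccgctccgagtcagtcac
Cnn2 (chr10:79988350-79988649, plus strand): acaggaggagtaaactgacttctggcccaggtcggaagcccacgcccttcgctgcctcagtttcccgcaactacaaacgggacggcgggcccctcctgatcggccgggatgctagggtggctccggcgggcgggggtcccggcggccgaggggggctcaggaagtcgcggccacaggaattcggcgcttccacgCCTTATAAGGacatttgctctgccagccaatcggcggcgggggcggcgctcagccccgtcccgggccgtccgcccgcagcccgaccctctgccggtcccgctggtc
Myl6, first window (chr10:128493837-128494136, minus strand): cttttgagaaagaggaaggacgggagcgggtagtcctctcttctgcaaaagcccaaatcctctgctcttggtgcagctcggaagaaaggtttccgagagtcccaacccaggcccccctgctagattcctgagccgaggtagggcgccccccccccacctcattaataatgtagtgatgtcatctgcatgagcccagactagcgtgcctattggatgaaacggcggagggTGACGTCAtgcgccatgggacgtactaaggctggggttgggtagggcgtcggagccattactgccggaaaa
Myl6, second window (chr10:128492960-128493259, minus strand): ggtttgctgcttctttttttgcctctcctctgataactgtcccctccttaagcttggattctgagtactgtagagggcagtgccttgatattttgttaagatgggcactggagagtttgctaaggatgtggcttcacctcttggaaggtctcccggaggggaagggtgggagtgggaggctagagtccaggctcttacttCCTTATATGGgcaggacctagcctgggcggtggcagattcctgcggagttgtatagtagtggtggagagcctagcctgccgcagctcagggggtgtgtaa
Srf held 2 boxes, which began 82 and 62 bases before its start, and the box of Actg1 began 90 bases before its start. Vcl and Cnn2 held boxes of the same 10 letters, 227 and 56 bases before their starts. In Myl6 the box (50 bases before the start) and TGACGTCA (21 bases before) belonged to different starts of the gene.

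None of the 39 genes was called in the comparison of dDAVP with control at an adjusted p under 0.05 by edgeR's quasi-likelihood test (Benjamini-Hochberg over all genes), in any of the 5 fits. Over all 18 libraries without covariates 0 of 36 tested members were called and 0 of 10121 genes (0.0%), and with the set as a term 0 of 36 members and 8 genes (0.079%). Within libraries 1 to 3 the counts were 0 of 35 members and 41 of 8991 genes (0.456%), within libraries 4 to 6 they were 0 of 36 and 0 of 10387 (0.0%), and within libraries 7 to 9 they were 0 of 37 and 0 of 11367 (0.0%). Aqp2, the check of the labels, was called with the set term and in libraries 1 to 3 only. It was not called over all 18 libraries without covariates, in libraries 4 to 6 or in libraries 7 to 9. In none of the 5 fits do 0 calls of members show that the members were unchanged. Where Aqp2 was called, it differed far more than any member, so its call does not show that smaller differences would be found. At an unadjusted p under 0.05 there were 0 members over all 18 libraries, where 2.15% of all genes were at that level, 1.08% higher and 1.08% lower. With the set term there were 4 (6.03% of genes), of which Tpm3 was higher (3.32%) and Cfl1, Cfl2 and Tmsb10 lower (2.71%). In libraries 1 to 3 there were 4 (10.5%), 0 of them higher (5.47%) and Cfl1, Tpm1, Myl12a and Mylk lower (5.05%). In libraries 4 to 6 there were 2 (4.61%), Myh9 higher (3.48%) and Myl6 lower (1.14%), and in libraries 7 to 9 there were 0 (5.19% of genes, 0.809% higher and 4.38% lower). DESeq2 called 0 members in each fit except libraries 1 to 3, where it called Myl12a (1.37% of all genes called), and limma voom with sample quality weights called Tpm1 and Myl12a with the set term (1.17% of genes). Myl9, Vil1 and Tagln lay below the filter on low counts over all 18 libraries. Ctgf did so too in libraries 1 to 3.

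The members fitted lower more often than higher. The fit with the set term gave 14 of 36 a positive log2 fold change (52.2% of all genes) and 22 a negative one (47.8%), with a median of -0.07 against 0.02 over all genes. Over all 18 libraries without covariates the split was 14 higher (54.8% of genes) and 22 lower (45.2%), in libraries 1 to 3 it was 13 higher (49.4%) and 22 lower (50.6%), in libraries 4 to 6 it was 15 higher (48.1%) and 21 lower (51.9%), and in libraries 7 to 9 it was 13 higher (48.9%) and 24 lower (51.1%). The split depended on scaling. With library totals in place of TMM it was 18 higher and 18 lower over all 18 libraries, 8 and 28 in libraries 4 to 6, and 23 and 14 in libraries 7 to 9, where that scaling moved the median of all genes to 0.24, -0.38 and 0.54. Of the 35 members tested in every set, 11 (31.4%) were lower with dDAVP in all 3, against 13.3% of 8784 genes. The 11 were Cfl1, Cfl2, Dstn, Tmsb4x, Tmsb10, Arpc2, Tpm1, Myl6, Myl12b, Actn1 and Vcl. Higher in all 3 were Tpm3, Tagln2 and Srf (8.57%, against 12.9% of genes). Some of these differences are close to 0, such as -0.01 for Tpm1 in libraries 7 to 9. When each library in turn was left out of its set, 4 of the 11 stayed negative throughout (Cfl1, Tmsb4x, Tmsb10 and Myl12b) and 0 of the 3 stayed positive. A test of whether the dDAVP effect differed between sets (edgeR, set by treatment) called 0 members and 0 of 10121 genes (0.0%), with 1 member, Arpc5, at an unadjusted p under 0.05 (6.63% of genes).

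**Figure D1:**
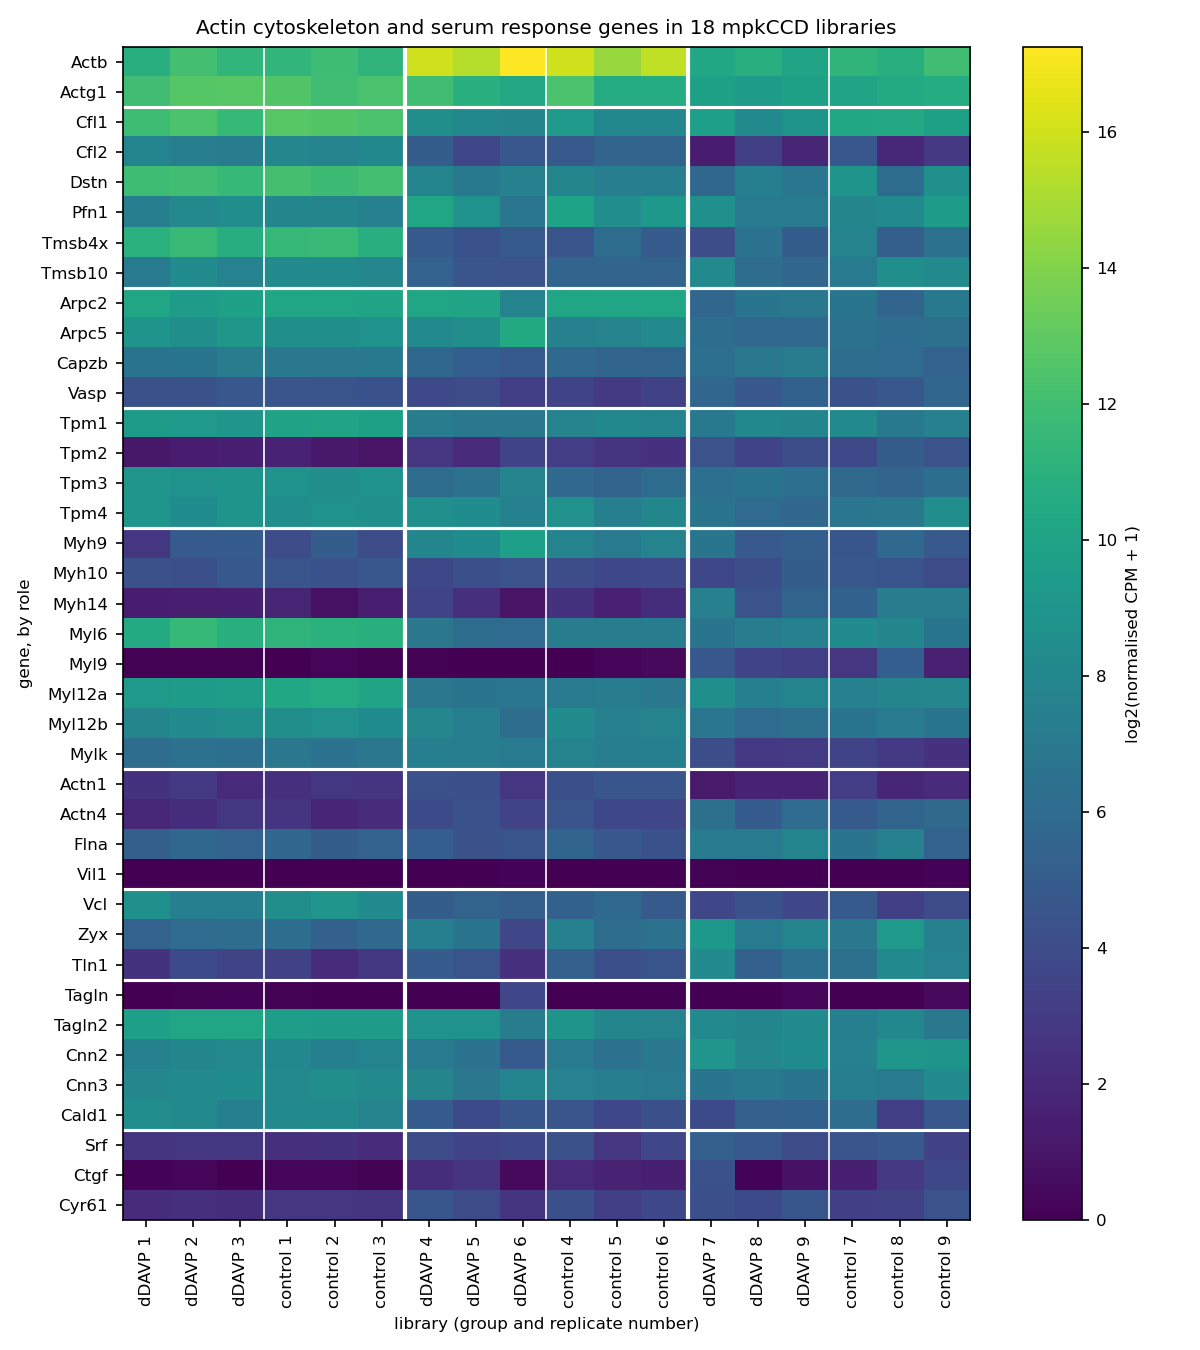
Level of each of the 39 genes (rows, grouped by role, white lines between roles) in each of 18 libraries (columns, dDAVP left of control within each set), as log2 of normalised CPM plus 1. Actb is brightest in libraries 4 to 6 (25196 to 156037 normalised CPM), and the columns differ more between sets than between dDAVP and control.

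Actin itself came from 2 genes, Actb (cytoplasmic beta-actin, chromosome 5, 142903115 to 142906754, mm10) and Actg1 (cytoplasmic gamma-actin). Actb had 1907, 4389.8 and 2585 normalised CPM in dDAVP libraries 1 to 3, against 2658, 3719 and 2362 in control. It had 66909.7, 40518 and 156037 in dDAVP libraries 4 to 6, against 64949.5, 25196 and 48819.6 in control, and 1307, 1908 and 1097 in dDAVP libraries 7 to 9, against 2510.0, 1862 and 3958 in control. The groups overlapped in every set, and dDAVP 6 was the highest library of all. The log2 fold change of Actb with the set term was 0.00 (SE 0.34), and in libraries 4 to 6 it was 0.94 (SE 1.28), or 0.14 without dDAVP 6. Unscaled CPM of dDAVP 6 gave 47739 for Actb, close to the 43825 of dDAVP 4 and the 45118 of control 6, so its high value comes with its TMM factor of 0.306. Actg1 had 923, 749 and 905 normalised CPM in dDAVP libraries 7 to 9, against 1101, 1511 and 1677 in control, the one set without overlap for it, and its log2 fold change there was -0.78 (SE 0.83, edgeR adjusted p = 0.959).

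The balance of the actin genes, as a share of their summed FPKM, does not depend on library scaling. Actb made up 33.1 ± 6.5% of it in dDAVP and 37.2 ± 9.87% in control libraries 1 to 3 (SD, n = 3 each). The share was 96.3 ± 2.55% in dDAVP and 94.5 ± 2.21% in control libraries 4 to 6, and 61.8 ± 8.94% in dDAVP and 65.0 ± 8.47% in control libraries 7 to 9. The sets thus lay farther apart than the treatments, whose ranges overlapped in each set. Of the 50-base stretches of Actg1 transcripts, 45.6% also occur in other genes, chiefly Gm12715, so its counts are less certain than those of Actb (12.2%).

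The proteins that bind single actin molecules or sever filaments fitted mostly lower with dDAVP. All 6 genes (Cfl1, Cfl2, Dstn, Pfn1, Tmsb4x and Tmsb10) had a negative log2 fold change with the set term, with a median of -0.69 (all genes 0.02), and 3 of them had an unadjusted p under 0.05, though 0 were called. The 6 were also negative over all 18 libraries without covariates (median -0.39), in libraries 4 to 6 (median -0.60) and in libraries 7 to 9 (median -1.22). In libraries 1 to 3, 5 of the 6 were negative (median -0.37), all but Pfn1. With library totals in place of TMM the 6 were again negative in the set term fit (median -0.71) and in libraries 7 to 9 (median -0.72, with all genes at 0.54). The signs did not hold in every setting. Over all 18 libraries 27 of 31 alternative settings kept the 6 negative (medians -0.91 to -0.11). In the other 4, 3 of 6 were negative by limma voom with sample quality weights (median -0.11), 4 of 6 without control 1 (median -0.23), and 5 of 6 without control 2 (median -0.31) or control 3 (median -0.27). With the set term 30 of 31 settings kept the 6 negative (medians -0.84 to -0.35), the exception being Pfn1 by limma voom with those weights. Without libraries 7 to 9 all 6 were negative in that fit, with a median of -0.45. In libraries 4 to 6 the median was -0.42 without control 4, -0.47 without dDAVP 5 and -0.53 without dDAVP 6, each with 5 of 6 negative. In libraries 7 to 9 it was -0.94 with 5 of 6 negative without control 7, and -1.45 with 6 of 6 negative without dDAVP 7.

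Cfl1 (cofilin-1, which severs filaments and returns actin molecules to the pool, chromosome 19, 5490455 to 5495201) had 3842, 5375 and 3033 normalised CPM in dDAVP libraries 1 to 3, against 6986, 6275 and 5055 in control. It had 369.8, 266 and 229 in dDAVP libraries 4 to 6, against 638, 269 and 265 in control. In dDAVP libraries 7 to 9 it had 859.7, 289 and 483, against 1267, 1387 and 878 in control. Within each number from 1 to 9 the dDAVP library was the lower one, by very little for number 5. The groups overlapped in libraries 1 to 3 and 4 to 6 and did not in libraries 7 to 9. Both depended on scaling. In FPKM, dDAVP 9 lay above control 9 (1123 against 856), and libraries 7 to 9 overlapped while libraries 1 to 3 did not. Nothing in the labels pairs libraries of one number, so counts over numbers are a description. The log2 fold change was -0.71 with the set term (SE 0.30, edgeR adjusted p = 0.815), -0.65 in libraries 1 to 3 (SE 0.27), -0.47 in libraries 4 to 6 (SE 0.56) and -1.16 in libraries 7 to 9 (SE 0.85). The value in libraries 4 to 6 rests on control 4, without which it was -0.0041, and the set term value was -0.49 without libraries 7 to 9. Exons of Snx32 overlap Cfl1 on the opposite strand, and the counting is not stated to use strand.

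Tmsb10 (thymosin beta-10, which binds single actin molecules) had 136, 313 and 199 normalised CPM in dDAVP libraries 1 to 3, against 318, 295 and 249 in control. In dDAVP libraries 4 to 6 it had 41.3, 22.4 and 20.1, against 49.1, 48.0 and 44.4 in control, with no overlap. It had 298, 71.5 and 49.8 in dDAVP libraries 7 to 9, against 129.7, 381 and 298 in control. In that last set dDAVP 7 stood level with control 9, and control 7 below both. The log2 fold change with the set term was -0.71 (SE 0.34, edgeR adjusted p = 0.816), and 27.0% of its 50-base stretches also occur in other genes. Its relative Tmsb4x (thymosin beta-4), far more abundant in libraries 1 to 3, had 1699 to 3231 normalised CPM in dDAVP and 1887 to 3109.9 in control libraries 1 to 3. It had 19.6 to 30.0 in dDAVP and 21.7 to 67.0 in control libraries 4 to 6, and its log2 fold change with the set term was -0.68 (SE 0.38).

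Cfl2 (cofilin-2, the form typical of muscle) had 155 to 221 normalised CPM in dDAVP and 213 to 259.5 in control libraries 1 to 3, and 11.8 to 33.2 in dDAVP and 27.1 to 49.1 in control libraries 4 to 6. Cfl2 was scarce in libraries 7 to 9, with 1.47 to 8.49 in dDAVP and 3.06 to 24.6 in control, and its log2 fold change with the set term was -0.88 (SE 0.39, edgeR adjusted p = 0.815). Dstn (destrin, a cofilin relative that also depolymerises filaments) had 3019 to 4019.9 in dDAVP and 3638 to 4680.0 in control libraries 1 to 3, and a log2 fold change of -0.61 (SE 0.36) with the set term. Pfn1 (profilin-1, which feeds actin molecules to growing filaments) had 168, 275 and 354 normalised CPM in dDAVP libraries 1 to 3, against 239.8, 229.6 and 189 in control, with overlap, and a log2 fold change of -0.26 (SE 0.40) with the set term. Within the cofilin family Cfl1 held 63.2 ± 3.82% of summed FPKM in dDAVP and 68.9 ± 4.37% in control libraries 1 to 3 (SD, n = 3 each), and the groups overlapped in the shares of Cfl1, Cfl2 and Dstn in each set.

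**Figure D2:**
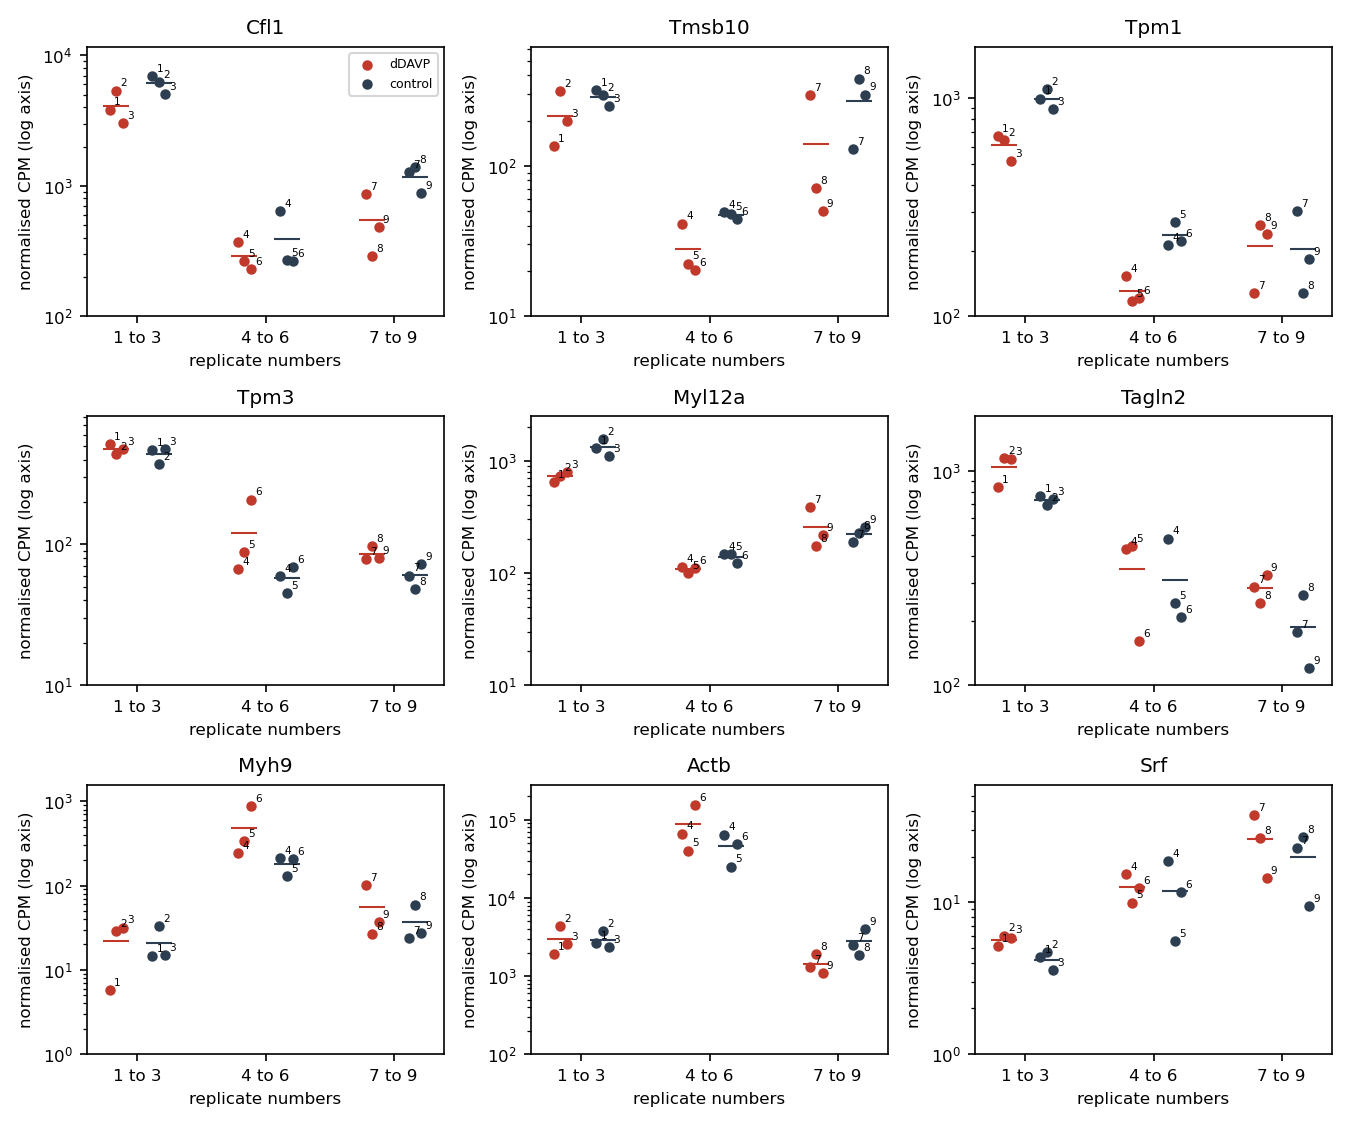
Normalised CPM (log axis) of 9 members in each library, with the replicate number beside each point, dDAVP (red) left of control (dark blue) within each set, and a line at each arithmetic mean of 3 libraries. On this scale Cfl1 sits lower with dDAVP within each number, and Tpm1 and Myl12a do not overlap in libraries 1 to 3 and 4 to 6. Actb and Myh9 of dDAVP 6 lie above all other libraries.

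Tropomyosins lie along filaments and decide which proteins may bind them. Tpm1 (chromosome 9, 67022590 to 67049406) had 673, 644 and 513 normalised CPM in dDAVP libraries 1 to 3, against 998, 1099 and 892 in control. It had 152, 117 and 121 in dDAVP libraries 4 to 6, against 212, 271 and 221 in control, and 127, 263 and 239 in dDAVP libraries 7 to 9, against 302, 127 and 183 in control. Every dDAVP library lay below every control library in the first and second sets, and the groups overlapped in the third. The log2 fold change was -0.76 in libraries 1 to 3 (SE 0.24, edgeR adjusted p = 0.301), -0.92 in libraries 4 to 6 (SE 0.48) and -0.01 in libraries 7 to 9 (SE 0.77). It was -0.51 with the set term (SE 0.27, edgeR adjusted p = 0.84), and -0.63 by limma voom with sample quality weights, which called it (adjusted p = 0.0278). Those weights were 2.34 to 9.42 for libraries 1 to 3, 0.264 to 1.35 for libraries 4 to 6 and 0.273 to 0.363 for libraries 7 to 9, so that fit leans on the first set. Without dDAVP 1, edgeR called Tpm1 in libraries 1 to 3 (log2 fold change -0.92, adjusted p = 0.0372), in a fit that called 774 genes (8.31%) against 41 with it.

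Tpm3 (chromosome 3, 90072649 to 90100902) went the other way. It had 515, 439 and 477 normalised CPM in dDAVP libraries 1 to 3, against 467, 372 and 472 in control. Its values in dDAVP libraries 4 to 6 were 66.9, 87.7 and 208, against 59.8, 45 and 69.0 in control, and those in dDAVP libraries 7 to 9 were 78.6, 97.7 and 79.6, against 60.0, 48.0 and 72.7 in control. Within each number the dDAVP library was the higher one, while the groups stood apart without overlap only in the third set. Both depended on scaling. In FPKM, Tpm3 was lower in dDAVP 2, 3, 6 and 7 than in the control library of the same number. The third set then overlapped, with 53.5 to 161 FPKM in dDAVP and 33.5 to 72.7 in control. Its log2 fold change was 0.56 with the set term (SE 0.27, edgeR adjusted p = 0.816), and in libraries 4 to 6 it was 1.05, or 0.32 without dDAVP 6. In libraries 1 to 3 it was 0.07 (SE 0.22), or -0.05 without dDAVP 1, and in libraries 7 to 9 it was 0.46, or 0.29 without control 8 and 0.30 without dDAVP 8. As 40.0% of its 50-base stretches also occur in other genes, chiefly its related sequence Tpm3-rs7, its counts are uncertain. Tpm4 had 97.3, 64.1 and 50.6 in dDAVP libraries 7 to 9, against 111, 117 and 358 in control, with no overlap and a log2 fold change of -1.52 (SE 0.80). The value was -0.70 without control 9, and -0.38 (SE 0.34) with the set term. Tpm2 was scarce in libraries 1 to 3 (1.14 to 1.80 in dDAVP and 0.856 to 2.08 in control), with a log2 fold change of -0.05 (SE 0.33) with the set term.

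Shares within the tropomyosins do not depend on library scaling, but they sum to a fixed total, so a lower share of Tpm1 raises the others. The shares of Tpm1 and Tpm3 went opposite ways in libraries 1 to 3 and 4 to 6. Tpm1 made up 46, 52.2 and 41.4% of tropomyosin FPKM in dDAVP libraries 1 to 3, against 61.4, 63.3 and 57.4% in control. It made up 30.3, 26.8 and 28.1% in dDAVP libraries 4 to 6, against 37.4, 62.3 and 48.7% in control, again without overlap, and 46.6 to 68.4% in dDAVP against 35.6 to 69.0% in control libraries 7 to 9. There the groups overlapped, and the mean was higher with dDAVP (60.6%) than in control (50.5%), as that of Tpm3 was. For Tpm3 the share was 27.9, 28.2 and 30.5% in dDAVP libraries 1 to 3, against 22.8, 17.0 and 24.1% in control. It was 10.5, 16 and 38.2% in dDAVP libraries 4 to 6, against 8.36, 8.20 and 12.1% in control, and 22.8, 19.7 and 18.1% in dDAVP libraries 7 to 9, against 10.9, 14.1 and 11.2% in control. Its mean was higher with dDAVP in each set, with overlap only in the second. The opposite movement is partly built into the measure and does not by itself show a rise of Tpm3. The log2 fold change of Tpm3 was 0.07 (SE 0.22) in libraries 1 to 3 and 1.05 (SE 0.54) in libraries 4 to 6. The mean share of Tpm4 was also higher with dDAVP in both of these sets. Shares within this and the other families were given no test, and their overlap was not counted over all genes.

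**Figure D3:**
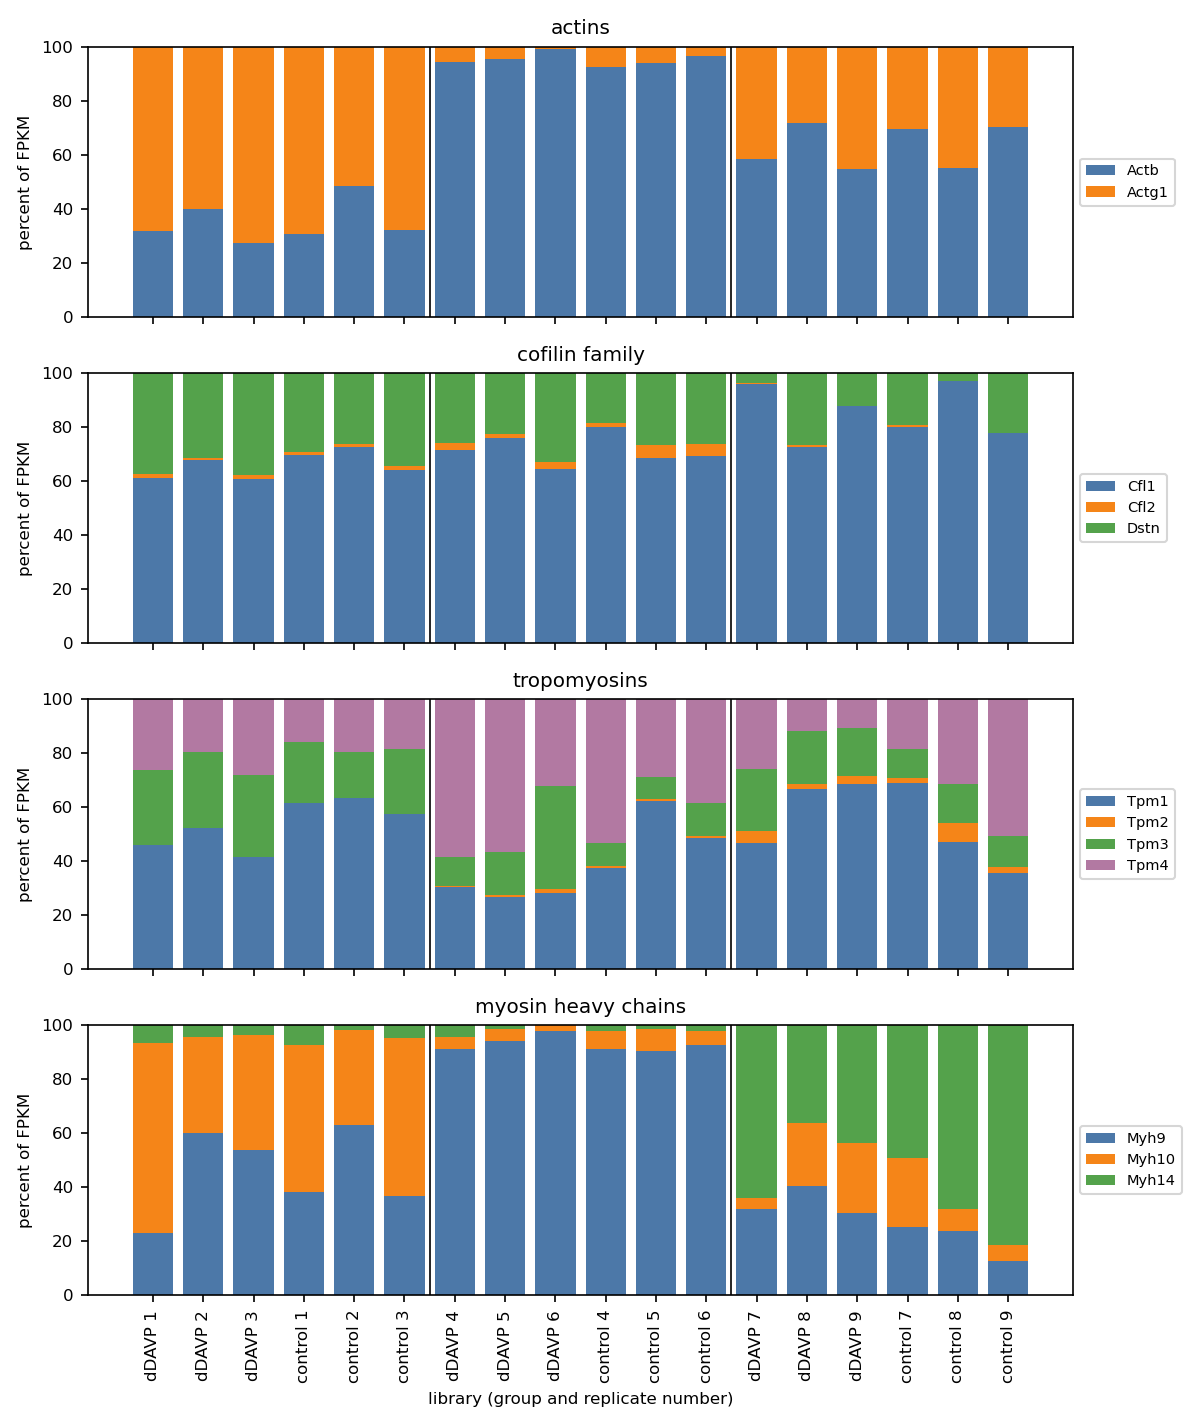
Share of summed FPKM (percent, stacked to 100) of each gene within the actins, the cofilin family, the tropomyosins and the myosin heavy chains, in each library, dDAVP left of control within each set and vertical lines between sets. Tpm3 takes a mean of 28.9% in dDAVP and 21.3% in control libraries 1 to 3, and Actb takes over 90% of actin FPKM only in libraries 4 to 6. Within a family a lower share of one gene raises the others.

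Myosin II is built from heavy chains (Myh9, Myh10 and Myh14), essential light chains (Myl6) and regulatory light chains (Myl9, Myl12a and Myl12b), which the kinase encoded by Mylk phosphorylates to start contraction. Myl12a (chromosome 17, 70993656 to 71002878) had 646, 739 and 795 normalised CPM in dDAVP libraries 1 to 3, against 1308, 1564 and 1096 in control. It had 114, 99.0 and 111 in dDAVP libraries 4 to 6, against 147, 148 and 122 in control, and 388, 173 and 217 in dDAVP libraries 7 to 9, against 187, 226 and 255 in control. All dDAVP libraries lay below all control libraries in the first and second sets, and dDAVP 7 was the highest of the third. The log2 fold change was -0.94 in libraries 1 to 3 (SE 0.23, edgeR adjusted p = 0.132), the lowest adjusted p of any member in the 5 edgeR fits. Myl12a was called in libraries 1 to 3 by DESeq2 (log2 fold change -0.94, adjusted p = 0.0433), by edgeR without a filter on low counts (-0.96, adjusted p = 0.0385, with 1.52% of 13603 genes called) and by edgeR without dDAVP 1 (-0.92, adjusted p = 0.0403). Its value with the set term was -0.34 (SE 0.26, edgeR adjusted p = 0.882), and -0.67 by limma voom with sample quality weights (adjusted p = 0.0231). Of its 50-base stretches 24.5% occur in other genes, 18.8% in Myl12b, and exons of Myom1 overlap it on the other strand.

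Its close relative Myl12b, 30.6% of whose stretches are shared, had 226 to 370.3 normalised CPM in dDAVP and 341 to 431 in control libraries 1 to 3, with log2 fold changes of -0.42 (SE 0.23) there (-0.26 without control 2) and -0.44 (SE 0.27) with the set term. The share of Myl12a among the 4 light chains was 12, 7.47 and 10.9% of FPKM in dDAVP libraries 1 to 3, against 14.6, 18.4 and 14.5% in control, without overlap. It was 12.6 to 26.1% in dDAVP and 12.1 to 15.7% in control libraries 4 to 6, where the dDAVP mean was the higher one. Mylk had 69.9, 85.1 and 79 normalised CPM in dDAVP libraries 1 to 3, against 120.2, 95.5 and 114 in control, without overlap, and a log2 fold change of -0.56 (SE 0.22, edgeR adjusted p = 0.401). In libraries 7 to 9 it was 0.49 (SE 0.77), with -0.07 without dDAVP 7, 0.26 without control 9 and 1.00 without control 7. Myl6 had 111, 68.6 and 63.0 in dDAVP libraries 4 to 6, against 155, 157 and 159.8 in control, without overlap, and a log2 fold change of -1.03 there (SE 0.47, edgeR adjusted p = 0.999) and of -0.53 (SE 0.29) with the set term. Myl9, the smooth muscle regulatory light chain, was near 0 in libraries 1 to 6 (0 to 0.385 normalised CPM) and had 24.9, 10.4 and 8.14 in dDAVP libraries 7 to 9, against 5.62, 34.3 and 2.04 in control.

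Among the heavy chains Myh9 (non-muscle myosin IIA) had 242, 339 and 869 normalised CPM in dDAVP libraries 4 to 6, against 209.9, 131 and 207 in control, without overlap. Its log2 fold change was 1.41 in that set (SE 0.63, edgeR adjusted p = 0.999), 0.58 without dDAVP 6, and 0.69 (SE 0.39) with the set term. The unscaled CPM of Myh9 in dDAVP 6 was 266, below the 332 of dDAVP 5. In libraries 7 to 9 Myh9 took 32.1, 40.4 and 30.5% of heavy chain FPKM in dDAVP, against 25.4, 23.7 and 12.6% in control, without overlap. That share also depends on Myh14, which took 36.1 to 64.2% in dDAVP and 49.4 to 81.3% in control there. In normalised CPM Myh9 overlapped in that set (26.9 to 102.6 in dDAVP, 23.7 to 59.5 in control). Myh14 (myosin IIC) had 178, 20.8 and 45.6 in dDAVP libraries 7 to 9, against 40.0, 149 and 155 in control, so that dDAVP 7 went with control 8 and 9, and control 7 with dDAVP 8 and 9. Myh10 (myosin IIB) ranged from 12.6 to 32.7 in dDAVP and 14.1 to 24.6 in control libraries 7 to 9, with a log2 fold change of 0.08 (SE 0.26) with the set term.

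**Figure D4:**
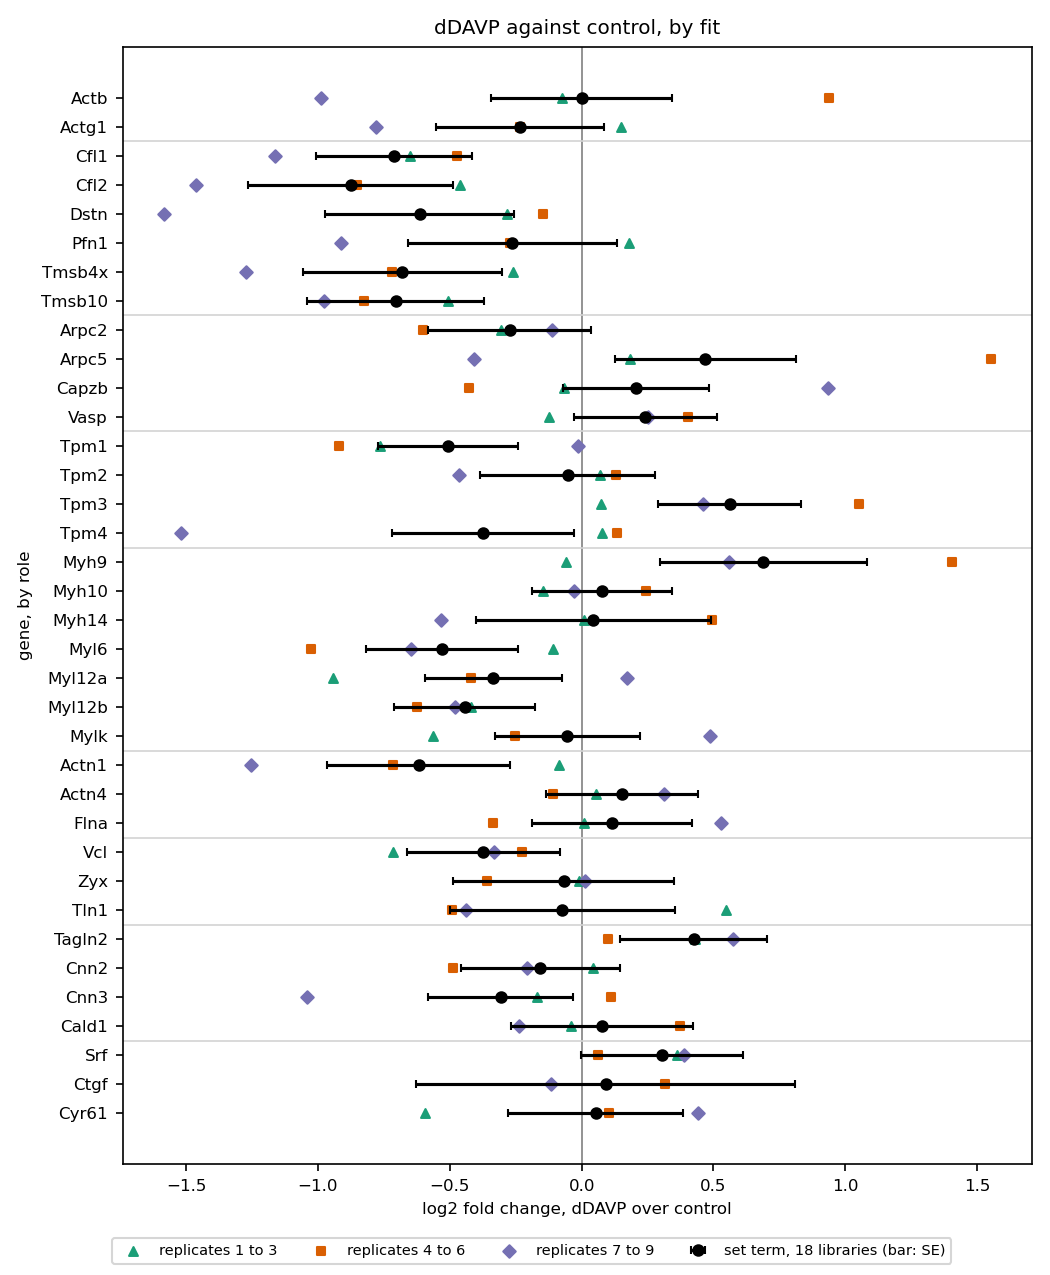
Log2 fold change of dDAVP over control for the 36 members tested with the set term (black, bar of 1 SE) and for each set alone (coloured symbols), by role. The 6 genes from Cfl1 to Tmsb10 lie left of 0 with the set term (median -0.69), while Tpm3 (0.56) and Myh9 (0.69) lie right of it. None passed the threshold.

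The genes for nucleation, capping and elongation showed no common direction. Their set term fits were positive for 3 of 4, with a median of 0.22. Arpc2, a core subunit of the Arp2/3 complex, had 1175, 1054 and 214 normalised CPM in dDAVP libraries 4 to 6, against 1147, 1174 and 1163 in control, so that only dDAVP 6 lay apart, and its log2 fold change with the set term was -0.27 (SE 0.31). Arpc5, another subunit, had 299, 363 and 1406 in dDAVP libraries 4 to 6, against 179.7, 212 and 311 in control, and 73.0, 58.1 and 57.4 in dDAVP libraries 7 to 9, against 88.4, 74.4 and 79.9 in control. Its log2 fold change was 1.55 (SE 0.72) in libraries 4 to 6, 0.39 without dDAVP 6, and -0.41 (SE 0.66) in libraries 7 to 9, where it was -0.17 without control 7. The edgeR adjusted p for a difference of its effect between sets was 0.741. Capzb, the beta subunit that caps filament ends, had 77.2, 119 and 151 in dDAVP libraries 7 to 9, against 69.8, 64.6 and 41.7 in control, without overlap (log2 fold change 0.93, SE 0.70), and 0.21 (SE 0.28) with the set term. Vasp, which speeds filament growth, had a log2 fold change of 0.24 (SE 0.27) with the set term.

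Of the crosslinkers, Flna (filamin A) had 129 to 216 normalised CPM in dDAVP and 41.7 to 188 in control libraries 7 to 9, against 18 to 34.1 in dDAVP and 19.8 to 46.1 in control libraries 4 to 6. Actn4 and Actn1 are non-muscle alpha-actinins that bundle filaments. Actn4 had a log2 fold change of 0.15 (SE 0.29) and Actn1 of -0.62 (SE 0.35, edgeR adjusted p = 0.856) with the set term. Actn1 had 1.4, 2.25 and 2.33 in dDAVP libraries 7 to 9, against 7.94, 2.57 and 3.18 in control, without overlap and at low levels, and its log2 fold change of -1.25 there (SE 0.94) became -0.38 without control 7. Vil1 (villin, a bundler of brush border microvilli) had 1 count in dDAVP 6, 12 in dDAVP 7 and 10 in control 9, and 0 in each other library.

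At adhesion plaques, Vcl (vinculin, which ties filaments to integrins and cadherins) had 401, 170.2 and 176 normalised CPM in dDAVP libraries 1 to 3, against 371, 511 and 324 in control. The high value of dDAVP 1 set it apart from dDAVP 2 and 3, and the groups overlapped. For Vcl the log2 fold change was -0.71 (SE 0.38, edgeR adjusted p = 0.525), and without dDAVP 1 it was -1.36 with an edgeR adjusted p of 0.0167. It was -0.44 without control 2, and -0.47 without dDAVP 2 or without dDAVP 3. Across the 35 members tested in libraries 1 to 3, dDAVP 1 was the highest dDAVP library for 7 (32.0% of all genes). As 38.2% of the 50-base stretches of Vcl also occur in the transcripts of Ap3m1, which overlaps it on the opposite strand, the Vcl counts are uncertain. Zyx (zyxin) had 584, 129 and 215 in dDAVP libraries 7 to 9, against 122, 607 and 181 in control, and Tln1 (talin-1, which activates integrins) had 318, 37.9 and 79.7 in dDAVP, against 82.3, 293 and 201 in control. As for Myh14, dDAVP 7 and control 8 stood together at the high end for both. Their log2 fold changes with the set term were -0.07 (SE 0.42) for Zyx and -0.07 (SE 0.43) for Tln1.

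Tagln2, Cnn2 and Cnn3 belong to the calponin family, which steadies filaments, and Cald1 encodes caldesmon, which checks myosin on them. Tagln2 (transgelin-2) had 842, 1152 and 1138 normalised CPM in dDAVP libraries 1 to 3, against 766, 695 and 742 in control. It had 433, 447 and 160.0 in dDAVP libraries 4 to 6, against 484, 242 and 208 in control, and 288, 241 and 325 in dDAVP libraries 7 to 9, against 177, 263 and 120.5 in control. The groups stood apart only in the first set, where the log2 fold change was 0.43 (SE 0.20, edgeR adjusted p = 0.478), and with the set term it was 0.42 (SE 0.28). Within the calponin family its share of FPKM was 72.0, 74.6 and 71.7% in dDAVP libraries 1 to 3, against 65.8, 64.3 and 66.1% in control, without overlap. Cnn3 had 98.3, 124 and 99.0 in dDAVP libraries 7 to 9, against 168, 147 and 326 in control, without overlap (log2 fold change -1.04, SE 0.75, or -0.56 without control 9), and 26.0% of its stretches are shared. In the set term fit it was -0.31 (SE 0.27) for Cnn3, -0.16 (SE 0.30) for Cnn2 and 0.08 (SE 0.35) for Cald1. Tagln (transgelin, a smooth muscle gene) had 96 counts in dDAVP 6, or 11.5 normalised CPM, against at most 0.338 in any other library, and 47.6% of its stretches are shared, chiefly with Gm48529 on the opposite strand.

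Srf itself (chromosome 17, 46548329 to 46556175) had 5.13, 6.05 and 5.86 normalised CPM in dDAVP libraries 1 to 3, against 4.34, 4.69 and 3.56 in control, without overlap. It had 15.4, 9.97 and 12.5 in dDAVP libraries 4 to 6, against 18.7, 5.54 and 11.7 in control, and 37.7, 26.6 and 14.4 in dDAVP libraries 7 to 9, against 22.9, 27.1 and 9.47 in control. The dDAVP library was the higher one in 7 of 9 numbers, and the log2 fold change was 0.36 in libraries 1 to 3 (SE 0.29, edgeR adjusted p = 0.66, or 0.23 without control 3) and 0.31 with the set term (SE 0.31, edgeR adjusted p = 0.93). Of the other 4 genes whose windows were printed above with a CArG box, the set term fit gave -0.23 (SE 0.32) for Actg1, -0.53 (SE 0.29) for Myl6, -0.37 (SE 0.29) for Vcl and -0.16 (SE 0.30) for Cnn2. Cyr61 and Ctgf, matricellular proteins induced through Srf and YAP, were low. Cyr61 had 3.66, 3.99 and 3.72 normalised CPM in dDAVP libraries 1 to 3, against 5.56, 5.48 and 5.36 in control, without overlap, and a log2 fold change of -0.59 there (SE 0.28, edgeR adjusted p = 0.478). It was 0.44 (SE 0.71) in libraries 7 to 9, where it was 0.22 without control 8, 0.26 without dDAVP 9 and 1.00 without control 9, and 0.05 (SE 0.33) with the set term. Ctgf reached 18.9 in dDAVP 7 and 12.5 in control 9, was at most 0.242 in libraries 1 to 3, and had a log2 fold change of 0.09 (SE 0.72) with the set term.

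In normalised CPM, groups without overlap were near the share of all genes on the higher side and above it on the lower side. In libraries 1 to 3 they were Tagln2 and Srf on the higher side (2 of 35, against 7.47% of genes) and Tpm1, Myl12a, Mylk and Cyr61 on the lower (4 of 35, against 6.93%). In libraries 4 to 6 they were Myh9 on the higher side (1 of 36, against 5.38%) and Tmsb10, Tpm1, Myl6 and Myl12a on the lower (4 of 36, against 4.38%). In libraries 7 to 9 they were Capzb and Tpm3 on the higher side (2 of 37, against 4.56%) and Actg1, Cfl1, Arpc5, Tpm4, Actn1 and Cnn3 on the lower (6 of 37, against 4.43%). In FPKM, which has no TMM factor, the genes named for libraries 1 to 3 still stood apart. Of those named for libraries 4 to 6, Tpm1 and Myl6 did so, while Myh9, Tmsb10 and Myl12a overlapped. Each gene named for libraries 7 to 9 overlapped in FPKM, such as Actg1 (635 to 1315 in dDAVP, 1021 to 1347 in control). In that set dDAVP 7 was the lowest dDAVP library for 13 of 37 members (40.1% of all genes), control 7 the highest control library for 12 (36.0%), and both held for 10 (25.5%), Cfl2, Dstn and Tmsb4x among them. The library dDAVP 6 was the lowest dDAVP library of its set for 20 of 36 members (47.4% of genes).

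Other genes of the pathway, listed from textbook knowledge, gave 0 calls by edgeR in each of the 5 fits. Of 17 genes for the Arp2/3 complex, its WAVE activators and capping, 17 were tested with the set term, with a median log2 fold change of 0.01. An unadjusted p under 0.05 was found for 1, on the lower side (2.71% of all genes). It was Wasl (-1.17, SE 0.47, edgeR adjusted p = 0.815), which encodes the activator N-WASP. Actr3, the Arp3 subunit, had -0.67 (SE 0.33). Of 28 genes for turnover and bundling 24 were tested (median 0.05), and 2 had an unadjusted p under 0.05, both higher (3.32% of all genes). These were Wdr1 (0.86, SE 0.33), a helper of cofilin, and Coro1c (0.71, SE 0.28), a coronin that helps to disassemble branches. Wdr1 had 752, 962 and 2834 normalised CPM in dDAVP libraries 4 to 6, against 739, 374 and 460.2 in control, again with dDAVP 6 far above the rest. Coro1c had 20.6, 26.9 and 32.0 in dDAVP libraries 1 to 3, against 13.2, 15.3 and 19.7 in control. It had 45.1, 68.1 and 45.8 in dDAVP libraries 4 to 6, against 33.7, 25.2 and 16.1 in control. It did not overlap in either set, as did 7.47% and 5.38% of all genes on the higher side. In libraries 7 to 9 Coro1c overlapped, with 56.5, 52.25 and 83.65 in dDAVP, against 23.85, 75.7 and 52.6 in control. In libraries 1 to 3 the genes of these lists at that level were Wasl, Scin and Pls3 (lower, 5.05% of all genes) and Coro1c (higher, 5.47%). They were Coro1c and Sept7 in libraries 4 to 6 (higher, 3.48%), and Wasl and Actr3 in libraries 7 to 9 (lower, 4.38%).

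Of 16 adhesion genes 15 were tested (median 0.05), with 0 at an unadjusted p under 0.05 in that fit. Their median in libraries 1 to 3 was -0.16, and 3 of the 15 were lower at that level (5.05% of genes), the integrin subunits Itgb1, Itga6 and Itgav. In libraries 4 to 6, Lpp was higher (3.48% of genes) and Ilk lower (1.14%) at that level, and in libraries 7 to 9 there were 0. With the set term Itgb1 (integrin beta-1) had -0.78 (SE 0.40) and Ptk2, focal adhesion kinase, had 0.52 (SE 0.29). Of 29 partners and targets of Srf and YAP 27 were tested (median 0.06), with 1 higher (3.32% of genes) and 1 lower (2.71%) at that level. The higher one was Elk4, a ternary complex factor that binds beside Srf (2.00, SE 0.53, edgeR adjusted p = 0.377), with 28.8, 32.1 and 92.8 in dDAVP libraries 4 to 6, against 9.48, 4.91 and 11.9 in control. It was at 0 to 0.137 in dDAVP and 0 to 0.0611 in control libraries 1 to 3, below the filter there. The lower one was Mcl1, an anti-apoptotic gene that Srf partners are known to regulate (-0.95, SE 0.41). In single sets Egr1 was lower at that level in libraries 1 to 3 (5.05% of genes). Elk4, Ankrd1 and Lats2 were higher in libraries 4 to 6 (3.48%), and Mcl1 was lower in libraries 7 to 9 (4.38%).

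Sets differed in the level of the members by more than most treatment differences. Per length, Actb was the most abundant with a mean of 8223 FPKM over the 18 libraries, then Cfl1 (1595), Actg1 (1416), Myl6 (1144) and Tmsb4x (1037), and Vil1 was the lowest (0.00557). The lead of Actb comes with libraries 4 to 6, where it averaged 23169.7 FPKM in dDAVP and 19663 in control. Actb in libraries 1 to 3 averaged 1150.4 FPKM in dDAVP and 1189.9 in control, below Cfl1 (2639 in dDAVP and 3929.6 in control), Tmsb4x, Myl6 and Actg1. Genes outside the members differed as well. Actr2, of the pathway lists, was at most 17.8 normalised CPM in the first set, against at least 9559 in the second. For Sept2 these values were 122 and 14670. Both peaked in dDAVP 6, as Actb did (75150 for Actr2, 166300 for Sept2). Of 10100 genes 5701 were higher in the second set than in the first, and of 36 members 13 were. Whether these levels share a cause with that of Actb was not tested. Together the 39 genes took 1.86 to 2.38% of counts in dDAVP and 2.27 to 2.55% in control libraries 1 to 3. They took 4.62 to 5.05% in dDAVP and 3.81 to 5.10% in control libraries 4 to 6, and 0.977 to 1.79% in dDAVP and 1.22 to 1.96% in control libraries 7 to 9. Without Actb the share was lowest in dDAVP 6 (0.183%). Tmsb4x, Myl6, Dstn and Cfl1 were highest in libraries 1 to 3, Actb and Myh9 in libraries 4 to 6, and Myh14, Tln1, Actn4 and Myl9 in libraries 7 to 9. On the log2 scale of normalised CPM plus 1, libraries 7 to 9 minus libraries 1 to 3 came to -5.36 for Tmsb4x, -3.64 for Myl6, 4.84 for Myh14 and 3.99 for Tln1.

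These set differences varied with transcript length among the members. The 7 members with an implied length under 1500 bases had a median of -1.95 for libraries 7 to 9 minus libraries 1 to 3, and the 11 of 3000 bases or more had 1.07. Over all genes these medians were -0.11 and 0.20, with 0.52 for lengths between, so the order by length was not the same as in the members, whose 18 genes of that length had -1.51. For libraries 4 to 6 minus libraries 1 to 3 the medians were -2.73 and 0.88 for the members, and -0.76 and 0.46 for all genes. Of the 11 long members 6 were higher in libraries 7 to 9 than in libraries 1 to 3, and Mylk, Vcl, Cald1, Actn1 and Myh10 were lower (-3.37, -4.26, -3.31, -0.58 and -0.13). Which kit made which library is not in the labels, and the part of library preparation in these differences was not tested.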

How the data were processed

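RNA from 9 dDAVP and 9 control libraries was sequenced as 50-base single-end reads from 20 ng RNA, per the labels' protocols, which describe more than 1 library kit. The submitters' processing notes list HTSeq, SAMtools, STAR 2.4.0.1 and build mm10; the strand setting is not given in the sources used here. The deposited table of raw counts (24111 genes) was tested. The deposited FPKM table (24076 genes), scaled to library size and gene length by the authors, served for comparing levels between genes and for shares within families.

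The members and lists were chosen with earlier results of these data known. The main test was edgeR 4.0.16 (R 4.3.3; filterByExpr, TMM, quasi-likelihood, Benjamini-Hochberg over all genes tested) on 5 designs: all 18 libraries, the same with set as a term, and each set alone. Standard errors are the log2 fold change over the root of F. Alternatives were other scaling, DESeq2 1.42.0, limma 3.58.1 voom with quality weights, limma on log2(FPKM + 1 or 0.1), other filters, the replicate number as a block, and each library left out. The fits were also run on simulated counts with large planted changes and no set differences. That run does not show how they handle differences as small as those of the members. The text names members by role, and pathway genes by the lowest p of each list. One further list of pathway genes is not reported here. Transcript overlap came from 50-base stretches of GENCODE M21 transcripts, and promoters from RefSeq.

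No 2 libraries of a group agreed within sampling noise. Libraries of one number correlated at 0.398 to 0.926 in their deviations from group means. The values were -0.706 to 0.43 in deviations from the mean of each treatment group within each set. Counting error is small at these depths, and floors of 3 counts cover counting error only.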

Additional observations from a re-analysis of the deposited data

Results flagged for a closer look

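In 18 of 78 pairs of a gene and a treatment group, 1 library lay far above the other 8 of its group, by the gap to the next highest relative to the whole range. By chance the rule flags about 1 in 20 groups of 9 values drawn from 1 normal spread. The 9 libraries of a group span 3 sets with different levels, so the count cannot be read against that rate.

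The library dDAVP 6, with its TMM factor of 0.306, stood out for Actb (156037 normalised CPM, the next highest 66909.7), Arpc5 (1406, next 555), Myh9 (869, next 339) and Tagln (11.5, next 0.215). The library dDAVP 7 did so for Myh14 (178, next 45.6), Myl9 (24.9, next 10.4), Zyx (584, next 215), Tln1 (318, next 79.7) and Ctgf (18.9, next 5.28). Single genes stood out in dDAVP 4, with Pfn1 at 1141 (next 449), and in dDAVP 1, with Vcl at 401 (next 176).

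Among control libraries, control 8 stood out for Myl9 (34.3, next 5.62), Flna (188, next 100.3) and Zyx (607, next 189). Control 9 stood out for Vasp (50.0, next 24.9), Vil1 (0.141, next 0), Tagln (0.338, next 0.0611) and Ctgf (12.5, next 6.23).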

How the results depend on the processing

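None of the 39 genes was called by edgeR in the 5 designs, and the count of called members stayed at 0 under every alternative over all 18 libraries and within libraries 4 to 6 and 7 to 9. With the set term limma voom with sample quality weights called 2 (Tpm1 and Myl12a). In libraries 1 to 3, DESeq2 called 1 and edgeR with no filter on low counts called 1 (Myl12a in both), and leaving out 1 library gave 0 to 3, the 3 (Tpm1, Myl12a and Vcl) without dDAVP 1. The cause was not tested.

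Leaving out 1 library moved the count of called genes between 0 and 1 over all 18 libraries, 4 and 9 with the set term, 13 and 774 in libraries 1 to 3, 0 and 2 in libraries 4 to 6, and 0 and 98 in libraries 7 to 9. The other settings gave 0 to 12, 0 to 118, 14 to 207, 0 to 29 and 0 to 94. The replicate block called 0 members in each design, with 1, 1, 101, 0 and 3 genes called; libraries of one number share only a number.

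Signs changed in 106 of 1115 refitted values over all 18 libraries, 90 of 1115 with the set term, 40 of 520 in libraries 1 to 3, 66 of 538 in libraries 4 to 6 and 69 of 555 in libraries 7 to 9. With the set term 17 of 36 members kept their sign throughout, among them Cfl1, Cfl2, Dstn, Tmsb4x, Tmsb10, Tpm1 and Tpm3, while Pfn1 changed sign in 1 of 31 settings. Low counts in many libraries limit Vil1, Tagln, Ctgf and, in libraries 1 to 6, Myl9.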
